A study of Rattus norvegicus with 8 samples.

Results

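The 34 DNA replication genes described here were taken as the rows of the deposited count table whose symbol equals one of 34 listed symbols, without regard to case, and all 34 were found among the 37209 genes of the table. They code for proteins that license origins, unwind and copy DNA, load the sliding clamp and supply nucleotides. RNA was sequenced from whole carotid arteries of male Sprague-Dawley rats. In the injured group (4 arteries), the left carotid had been dilated with a balloon catheter 2 weeks before harvest, and in the control group (4 arteries) the right carotid, left undamaged, was taken. Each rat was its own control, so the arteries come in pairs from the same operated animals, but the labels do not say which animal gave which artery. Where nothing ties the arteries to separate animals, p-values measure the spread between these samples.

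Before S phase, the origin recognition complex marks origins, and Cdc6 and Cdt1 load the ring of Mcm2 to Mcm7 onto DNA, while geminin (Gmnn) holds Cdt1 back. Cdc45 and the GINS complex then turn the ring into the moving helicase, polymerases copy both strands on the clamp PCNA, and E2F factors drive the transcription of most of these genes. In the rat carotid, balloon injury is known to send smooth muscle cells of the media into the cell cycle, and they later form the neointima. These are whole arteries, so more dividing cells and more mRNA per dividing cell cannot be told apart.

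Levels are given as CPM, the count as a share of the library total scaled by the trimmed-mean (TMM) factor of edgeR. CPM is not scaled to transcript length, so it compares arteries and not genes. Total counts lay between 13470754 and 15276952 in the control arteries and between 11459632 and 16658089 in the injured arteries, and 3 counts, the floor used here, correspond to 0.180 to 0.262 CPM by library totals. This floor covers counting error only. Control artery 4 stood apart. Across genes its log2 CPM correlated with the other controls at 0.830 to 0.852 and with the nearest injured artery at 0.917, whereas the highest correlation of each other control with another control was 0.977 to 0.978. The summed CPM of 6 sympathetic neuron markers was 5685 in control artery 4, at most 2.09 in the other controls and 8.995 to 874 in the injured arteries. Of these markers, Npy was at 0 in control artery 4. Smooth muscle markers (Myh11, Acta2 and 4 others) were found in all 8 arteries, although an extraction note attached to the samples names the prefrontal cortex. Of 6 brain neuron markers, Neurod6, Gad2 and Slc17a7 were at most 0.655 CPM in any artery. Gad1 reached 2.21 CPM in control artery 2, Rbfox3 2.36 CPM in control artery 4, and Camk2a was 19.7 CPM in control artery 4 and 0.508 to 5.05 CPM in the other arteries.

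A promoter window from 250 bases before to 50 bases after the gene start was given by RefSeq (build GRCr8) for 29 of the 34 genes. The E2F element was searched on both strands as TTTCCCGC, TTTCGCGC, TTTGCCGC or TTTGGCGC. At least 1 match lay in 15 of the 29 windows (51.7%), against 2.25% of all 27457 windows and 3.71% of the 9764 windows of genes tested here. A high share was not particular to these genes. Among the further lists described below, a match lay in 13 of 32 windows of origin and replisome genes (40.6%). It lay in 3 of 8 windows of E2F and RB family genes (37.5%), but in only 1 of 10 windows of nucleotide supply genes and 1 of 13 of mitosis genes. Of the 9 windows of genes called higher after injury (the test is described below), 4 held a match (44.4%), and of the 19 windows of genes that were not called, 10 did (52.6%). These windows are shown because they cover 4 subunits of the helicase ring and Uhrf1, a called gene without a match. Mcm3 (chr9:30733697-30733996, minus strand), Mcm5 (chr19:13488563-13488862, plus strand) and Mcm6 (chr13:42404303-42404602, minus strand) were called higher, Mcm7 (chr12:22163129-22163428, minus strand) was not called, and Uhrf1 (chr9:1221813-1222112, plus strand) was called higher. Capitals mark the matches, 5′ to 3′ along the gene.
Mcm3: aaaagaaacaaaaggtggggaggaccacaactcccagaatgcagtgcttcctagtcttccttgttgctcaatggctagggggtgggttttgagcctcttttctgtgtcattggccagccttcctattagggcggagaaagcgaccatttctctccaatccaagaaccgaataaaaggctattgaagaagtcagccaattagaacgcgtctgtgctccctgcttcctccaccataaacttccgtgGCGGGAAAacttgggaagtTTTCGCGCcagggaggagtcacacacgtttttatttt
Mcm5: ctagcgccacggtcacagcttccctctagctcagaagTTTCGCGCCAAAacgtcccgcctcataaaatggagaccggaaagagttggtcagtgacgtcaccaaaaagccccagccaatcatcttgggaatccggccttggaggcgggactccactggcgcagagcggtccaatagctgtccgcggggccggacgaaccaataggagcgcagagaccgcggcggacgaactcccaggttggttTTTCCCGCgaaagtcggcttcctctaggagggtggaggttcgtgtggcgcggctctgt
Mcm6: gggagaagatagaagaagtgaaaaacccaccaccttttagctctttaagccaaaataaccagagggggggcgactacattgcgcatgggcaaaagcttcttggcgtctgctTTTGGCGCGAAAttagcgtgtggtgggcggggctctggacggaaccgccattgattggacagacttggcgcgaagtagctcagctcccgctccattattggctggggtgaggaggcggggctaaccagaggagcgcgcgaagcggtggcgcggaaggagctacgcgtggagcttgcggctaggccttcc
Mcm7: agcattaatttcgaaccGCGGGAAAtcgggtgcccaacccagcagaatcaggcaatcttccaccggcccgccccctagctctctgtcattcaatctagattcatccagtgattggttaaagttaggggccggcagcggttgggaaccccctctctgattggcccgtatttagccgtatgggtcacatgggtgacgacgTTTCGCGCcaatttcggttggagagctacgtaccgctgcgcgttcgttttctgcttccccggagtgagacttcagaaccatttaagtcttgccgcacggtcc
Uhrf1: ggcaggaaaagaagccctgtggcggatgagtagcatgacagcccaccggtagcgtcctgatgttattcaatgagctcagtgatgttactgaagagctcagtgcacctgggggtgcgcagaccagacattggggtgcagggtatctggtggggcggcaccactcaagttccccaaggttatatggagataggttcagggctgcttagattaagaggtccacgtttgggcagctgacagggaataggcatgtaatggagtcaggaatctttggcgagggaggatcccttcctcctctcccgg
In Mcm5 and Mcm6 a pair of matches on opposite strands overlap and read as 1 run of capitals, and Mcm5 has another match that ends at the last base before the start. The matches in Mcm7 begin 233 and 52 bases before the start, and those in Mcm3 begin 6 bases before the start and at base 14 after it. Such matches are a description of these letters. No match in a window says nothing of the factor.

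The quasi-likelihood test of edgeR was run between the groups over all 14359 genes with enough counts. A gene was called at an adjusted p (Benjamini-Hochberg) under 0.05 together with a fold change above 2. Of the 34 replication genes, 33 were tested and 11 were called higher in the injured arteries, namely Uhrf1, Cdc6, Rrm2, Mcm3, Mcm5, Chaf1b, Mcm10, Cdt1, Tk1, Gins2 and Mcm6. That is 33.3% of those tested, where 8.31% of all genes tested were called higher. The 34 genes were chosen with earlier results of these data known, so this share is a description only. None was called lower by edgeR, none had an unadjusted p under 0.05 in that direction, and DESeq2 called 0 lower and 11 higher (2.57% of all genes were called lower by edgeR, and 9.72% higher by DESeq2). The median log2 fold change of the 33 genes was 0.77, that of all genes tested was -0.06, and 30 of the 33 had a positive value, against 45.2% of all genes. In 17 of the 33 genes, every injured artery lay above every control artery, as in 14.2% of all genes tested. All 11 called genes were among these 17, and the other 6 were Mcm2, Mcm4, Cdc45, Pole, Rfc3 and Rrm1. Without control artery 4, 13 replication genes were called (12.3% of all genes called higher), with Gmnn and Gins1 added. With library totals in place of TMM factors 12 were called (9.92% of all genes called higher), on the adjusted p alone 13 (10.8%), and in a test against a fold change of 2 itself 7 (4.18%).

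**Figure D1:**
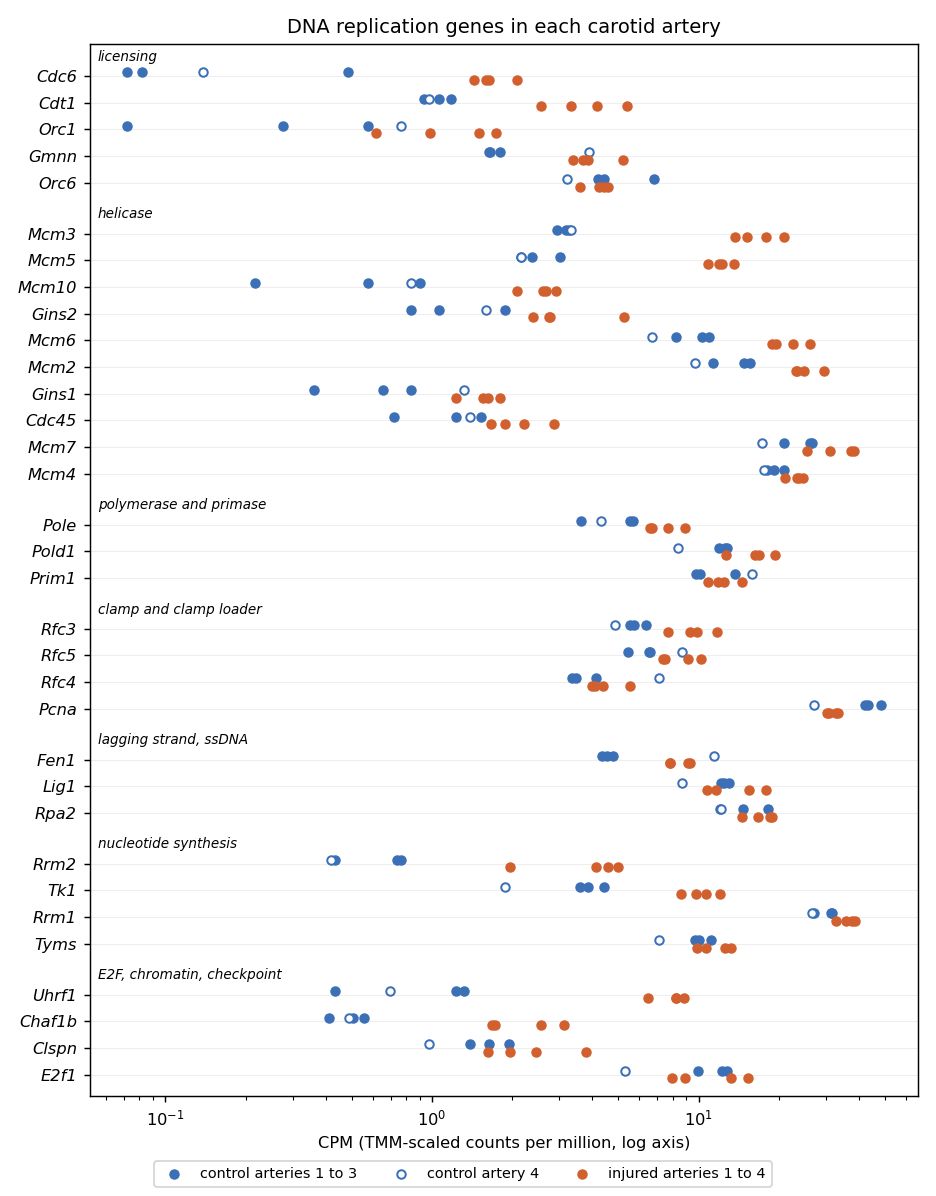
CPM of the 33 replication genes with counts, on a log axis, with 1 point per artery (blue, control arteries 1 to 3; open blue, control artery 4; orange, injured arteries) and genes grouped by role. The groups separate for Mcm3, Mcm5, Uhrf1 and 14 others, whereas the points of Pcna, Prim1, Orc6 and E2f1 overlap.

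Of the 5 licensing genes, Cdc6 and Cdt1 rose (8.31% of all genes tested were called higher). Cdc6, the ATPase that helps load the helicase ring, had 0.0720, 0.0820, 0.485 and 0.139 CPM in control arteries 1 to 4 and 1.44, 1.60, 2.08 and 1.64 CPM in injured arteries 1 to 4. The counts behind these values were 1, 1, 7 and 2 in the controls, so that its control level rests on very few reads, and 24, 22, 37 and 20 after injury. All injured arteries were higher, with a log2 fold change of 3.04 (standard error 0.55, edgeR adjusted p = 0.00794). It was between 2.77 and 3.98 when each artery was left out in turn, and Cdc6 was called in all 8 of those fits. Cdt1, the partner of Cdc6 in loading, went from 0.936, 1.07, 1.18 and 0.973 CPM in the controls to 2.57, 5.37, 3.31 and 4.17 CPM in the injured arteries. The lowest injured artery was more than the highest control, and the log2 fold change was 1.88 (standard error 0.28, edgeR adjusted p = 0.0036).

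Gmnn, which codes for the inhibitor of Cdt1, had 1.66, 1.64, 1.802 and 3.89 CPM in the controls and 5.20, 3.84, 3.37 and 3.68 CPM after injury. Control artery 4 lay within the injured range while the other controls lay below it, and the log2 fold change of 0.84 was not called (standard error 0.34, edgeR adjusted p = 0.136). Without control artery 4 it was 1.23 and called (edgeR adjusted p = 0.0105). The log2 ratio of Cdt1 to Gmnn counts, which does not depend on the scaling of the library, was -0.82, -0.62, -0.61 and -2.00 in the controls and -1.02, 0.48, -0.02 and 0.18 in the injured arteries. These ranges overlap through injured artery 1, the injured artery with the most Gmnn and the least Cdt1.

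The origin recognition complex genes did not pass the test. Orc1, its largest subunit, had 0.0720, 0.574, 0.277 and 0.764 CPM in the controls and 1.495, 1.74, 0.618 and 0.982 CPM after injury, with only 1 to 11 counts per control artery. The log2 fold change of 1.501 carried a standard error of 0.62 (edgeR adjusted p = 0.139), and injured artery 3 lay within the control range. Orc6, the smallest subunit, had 4.18, 6.81, 4.44 and 3.20 CPM in the controls and 4.25, 4.57, 3.59 and 4.42 CPM after injury, and the groups overlapped fully (log2 fold change -0.14, standard error 0.26, edgeR adjusted p = 0.738). With library totals in place of TMM factors, or without control artery 2, the sign of Orc6 turned.

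Of the 10 helicase genes, 5 rose (8.31% of all genes tested were called higher), and in 8 of the 10 every injured artery lay above every control (14.2% of all genes). Mcm3 had 3.17, 2.95, 3.26 and 3.34 CPM in the controls, a narrow range, and 13.6, 20.8, 15.2 and 17.8 CPM in the injured arteries. Mcm5 had 3.03, 2.38, 2.15 and 2.15 CPM and 12.2, 10.9, 12.0 and 13.6 CPM. Both subunits of the ring thus rose, with log2 fold changes of 2.40 (standard error 0.18, edgeR adjusted p = 0.000251) and 2.32 (standard error 0.19, edgeR adjusted p = 0.000298).

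Mcm6 also rose, from 8.21, 10.3, 10.9 and 6.67 CPM in the controls to 19.6, 26.3, 18.9 and 22.6 CPM after injury, a log2 fold change of 1.27 (standard error 0.20, edgeR adjusted p = 0.00466). Mcm2 had 15.6, 11.3, 14.8 and 9.73 CPM in the controls and 24.9, 23.4, 23.1 and 29.5 CPM in the injured arteries. Its adjusted p of 0.01 in edgeR's test passed, but its fold change of 1.96 fell just short of 2, and it was called in the 4 fits without control artery 1, control artery 3, injured artery 2 or injured artery 3. The subunits Mcm7 and Mcm4 had the smallest differences. Mcm7 had 26.1, 20.9, 26.5 and 17.3 CPM and 38.4, 25.5, 31.0 and 37.2 CPM, with injured artery 2 inside the control range, and Mcm4 had 19.2, 18.0, 21.0 and 17.7 CPM and 23.8, 23.4, 21.1 and 24.6 CPM, with injured artery 3 barely above control artery 3. Their log2 fold changes were 0.54 (standard error 0.19, edgeR adjusted p = 0.0942) and 0.29 (standard error 0.12, edgeR adjusted p = 0.13).

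**Figure D2:**
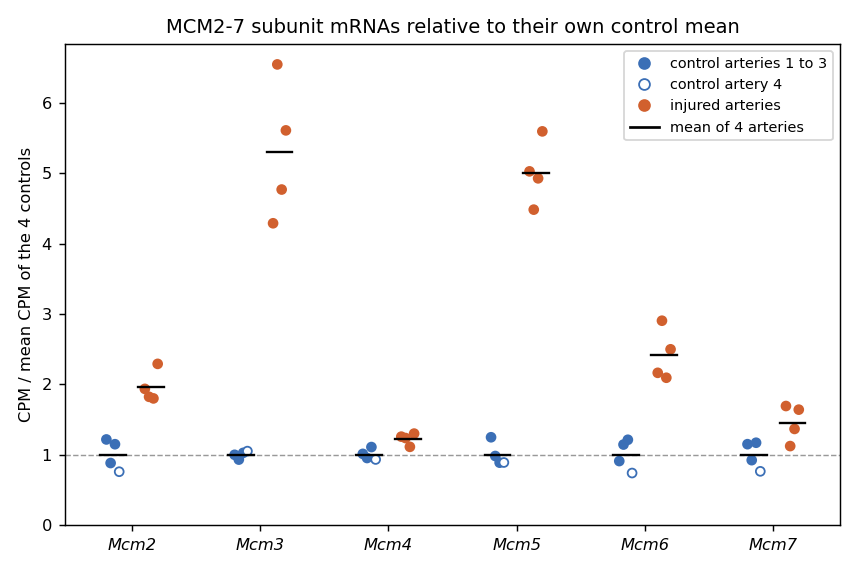
CPM of each Mcm2 to Mcm7 mRNA divided by the mean of its 4 controls (dashed line at 1), with 1 point per artery and a bar at the mean of 4 arteries. Injured arteries reach about the fold changes of 5.29 for Mcm3 and 4.996 for Mcm5, against 1.22 for Mcm4.

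Although the products of these 6 genes assemble in equal number, the fold changes of their mRNAs ran from 1.22 for Mcm4 to 5.29 for Mcm3. Ratios between subunits in the same artery are free of library scaling. The pairs were compared after the values had been seen, so no test is given. The log2 ratio of Mcm3 to Mcm4 counts was -2.60, -2.61, -2.69 and -2.40 in the controls and -0.80, -0.17, -0.47 and -0.47 after injury, a mean difference of 2.10. In each injured artery the ratio exceeded that of every control by more than 1 log2 unit. By contrast, Mcm3 to Mcm5 gave 0.07, 0.31, 0.60 and 0.63 in the controls and 0.16, 0.94, 0.34 and 0.39 after injury, which overlap. Of the 15 pairs of ring subunits, 12 had ratios without overlap between the groups, where 25.0% of all pairs among 14037 genes with a count in every artery did. The 15 pairs share the same 6 genes, so they are not separate observations and in part restate the fold changes above. The overlapping pairs were Mcm2 with Mcm6, Mcm3 with Mcm5, and Mcm4 with Mcm7.

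Among the proteins that activate the ring, Mcm10 and Gins2 rose. Mcm10, needed to start unwinding, had 0.216, 0.574, 0.901 and 0.834 CPM in the controls and 2.93, 2.68, 2.08 and 2.62 CPM in the injured arteries (log2 fold change 2.01, standard error 0.40, edgeR adjusted p = 0.0123). Gins2, a GINS subunit, had 1.87, 1.07, 0.832 and 1.60 CPM and 5.26, 2.39, 2.75 and 2.78 CPM. Injured artery 1 was well above the other injured arteries, and the log2 fold change of 1.29 (standard error 0.37, edgeR adjusted p = 0.0475) passed narrowly. Of the 8 fits that left out 1 artery, only that without control artery 4 called Gins2.

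Gins1, another GINS subunit, had 0.360, 0.656, 0.832 and 1.32 CPM in the controls and 1.79, 1.23, 1.63 and 1.55 CPM after injury, and control artery 4 overlapped the injured range. It was not called (log2 fold change 0.96, standard error 0.39, edgeR adjusted p = 0.136), but without control artery 4 it was, at 1.32 (edgeR adjusted p = 0.0357). Cdc45, the third part of the moving helicase, had 0.720, 1.23, 1.52 and 1.39 CPM and 2.21, 1.67, 2.86 and 1.88 CPM, with a log2 fold change of 0.83 (standard error 0.31, edgeR adjusted p = 0.112). Its groups did not overlap, yet the distance between the highest control and the lowest injured artery was small.

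The genes for DNA polymerases and primase were not called in 3 of 3 cases by edgeR or DESeq2. By edgeR 10.9% of all genes tested were called in either direction, so no call among 3 genes lies near that share. Of the 3, 2 genes, Pole and Pold1, had an unadjusted p under 0.05. Pole, the catalytic subunit of the leading-strand polymerase, had 5.69, 3.61, 5.54 and 4.31 CPM in the controls and 6.58, 8.92, 7.69 and 6.71 CPM after injury (log2 fold change 0.64, standard error 0.21, edgeR adjusted p = 0.0772). Pold1, its lagging-strand counterpart, had 12.8, 11.9, 12.5 and 8.34 CPM and 16.2, 12.7, 16.9 and 19.4 CPM (log2 fold change 0.52, standard error 0.20, edgeR adjusted p = 0.116). All injured arteries were above the controls for Pole, and injured artery 2 overlapped them for Pold1. Prim1, the primase that lays RNA primers, had 10.1, 9.76, 13.7 and 15.9 CPM and 11.8, 12.4, 10.8 and 14.6 CPM, with control artery 4 above every injured artery and a log2 fold change of 0.01 (standard error 0.20, edgeR adjusted p = 0.987). Pola1, the catalytic subunit of the primase-linked polymerase, was listed at 0 in all 8 arteries and could not be tested.

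**Figure D3:**
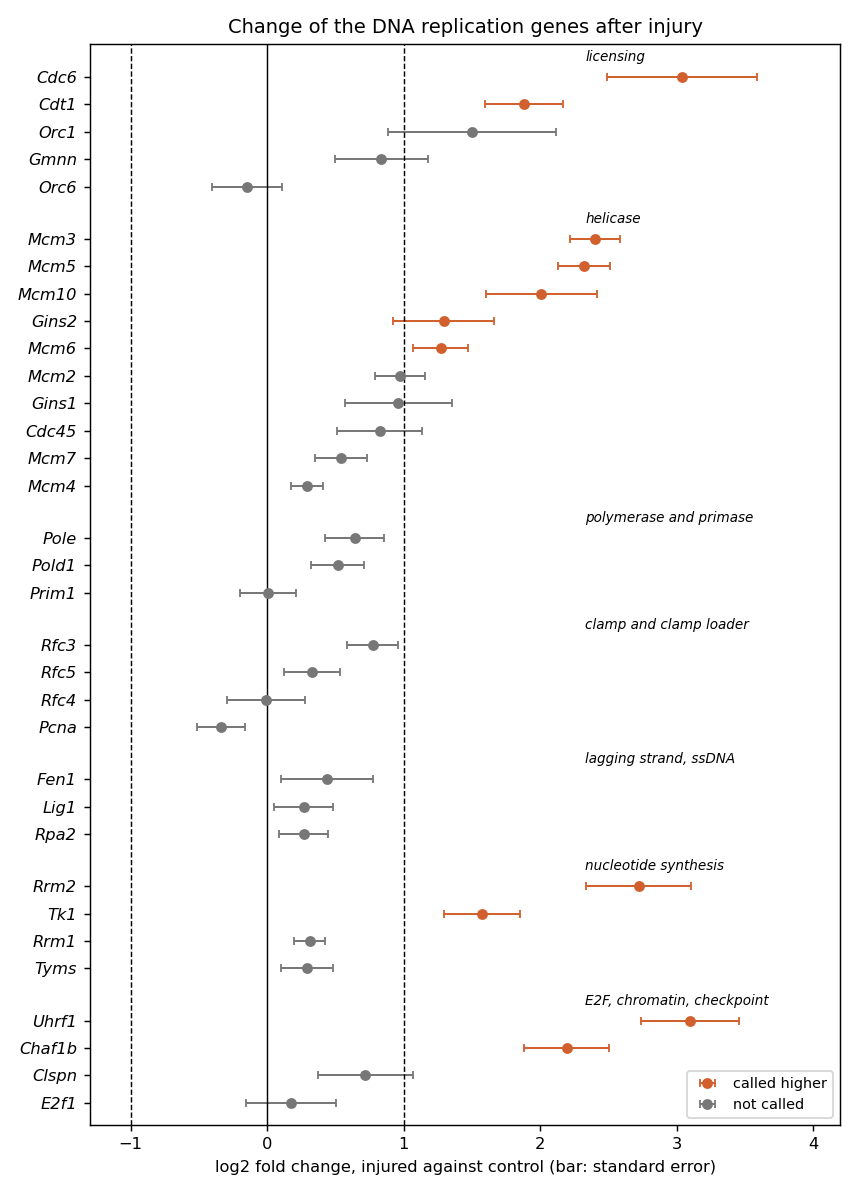
Log2 fold change of the 33 tested genes (injured against control, bars are standard errors), orange where called and grey where not, with dashed lines at a fold change of 2 in either direction. Calls lie in the licensing, helicase, nucleotide synthesis and E2F, chromatin and checkpoint groups. None lies in the polymerase, clamp and lagging-strand groups of 3, 4 and 3 tested genes, beside 10.9% of all genes called in either direction.

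Of the clamp and its loader, 0 of 4 genes were called by edgeR or DESeq2 (10.9% of all genes by edgeR). Of the 4, 1 gene, Rfc3, had an unadjusted p under 0.05. Pcna, the sliding clamp, had 42.1, 48.2, 43.2 and 27.2 CPM in the controls and 33.4, 32.7, 30.9 and 30.2 CPM in the injured arteries. Control arteries 1 to 3 lay above all injured arteries and control artery 4 lay below them, which left a log2 fold change of -0.34 (standard error 0.18, edgeR adjusted p = 0.235). Without control artery 4 it was -0.49 (edgeR adjusted p = 0.00766), still short of a fold change of 2. Rfc3, a small subunit of the clamp loader, had 6.34, 5.74, 5.54 and 4.86 CPM and 7.66, 9.29, 9.83 and 11.7 CPM, without overlap, and its log2 fold change of 0.77 (standard error 0.19) passed on the adjusted p in edgeR's test, 0.0256, but not on the fold.

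The other loader subunits had smaller differences. Rfc4 had 4.11, 3.36, 3.46 and 7.09 CPM in the controls and 4.37, 5.51, 3.99 and 4.09 CPM after injury, and Rfc5 had 6.55, 5.41, 6.51 and 8.69 CPM and 7.36, 7.47, 9.10 and 10.2 CPM. For both, control artery 4 was the highest control, and for Rfc4 it exceeded every injured artery. Their log2 fold changes were -0.01 (standard error 0.28, edgeR adjusted p = 0.991) and 0.33 (standard error 0.21, edgeR adjusted p = 0.326), and that of Rfc4 was 0.29 without control artery 4 (edgeR adjusted p = 0.368).

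Among the genes for lagging-strand and single-strand DNA work, 0 of 3 were called by edgeR or DESeq2 (10.9% of all genes by edgeR). Of the 3, 0 had an unadjusted p under 0.05. Fen1, the flap nuclease that trims Okazaki fragments, had 4.54, 4.35, 4.78 and 11.4 CPM in the controls and 7.84, 7.83, 9.10 and 9.25 CPM after injury. Control artery 4 was the highest of all 8 arteries and the other controls were the lowest, so the log2 fold change of 0.44 (standard error 0.34, edgeR adjusted p = 0.42) became 0.89 without it (edgeR adjusted p = 0.00838), which is still under a fold change of 2. Lig1, the ligase that seals the fragments, had 13.0, 12.1, 12.4 and 8.69 CPM and 17.8, 15.5, 11.6 and 10.7 CPM, and Rpa2, a subunit of the single-strand binding protein, had 14.7, 12.1, 18.2 and 12.1 CPM and 14.5, 16.7, 18.9 and 18.5 CPM. Both overlapped between the groups, each with a log2 fold change of 0.27 (standard errors 0.22 and 0.18, edgeR adjusted p = 0.447 and 0.352).

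In nucleotide synthesis, 2 of 4 genes rose (8.31% of all genes tested were called higher), and the ribonucleotide reductase subunits differed in the size of their change. Rrm2, the small subunit whose level normally follows S phase, had 0.432, 0.738, 0.762 and 0.417 CPM in the controls and 4.13, 5.01, 1.97 and 4.58 CPM in the injured arteries, a log2 fold change of 2.72 (standard error 0.39, edgeR adjusted p = 0.00283). Rrm1, the large subunit, had 31.3, 27.1, 31.6 and 26.7 CPM and 35.7, 37.7, 32.7 and 38.6 CPM. It lay higher in every injured artery but by a log2 fold change of only 0.31 (standard error 0.11, edgeR adjusted p = 0.0993) and was not called. The log2 ratio of Rrm2 to Rrm1 counts was -6.18, -5.20, -5.37 and -6.00 in the controls and -3.11, -2.91, -4.06 and -3.08 after injury, without overlap. Rrm2 was counted 6 to 11 times in the controls.

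Tk1, the cytosolic thymidine kinase, rose from 3.60, 3.85, 4.44 and 1.88 CPM to 8.61, 12.0, 9.77 and 10.6 CPM, with a log2 fold change of 1.57 (standard error 0.28, edgeR adjusted p = 0.00737). Tyms, which makes thymidylate anew, had 9.72, 10.01, 11.1 and 7.09 CPM in the controls and 13.3, 12.5, 9.88 and 10.6 CPM after injury and was not called (log2 fold change 0.29, standard error 0.19, edgeR adjusted p = 0.344). Injured arteries 3 and 4 lay within the control range of Tyms, whereas for Tk1 the lowest injured artery had 8.61 CPM and the highest control 4.44 CPM.

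The last 4 genes are a transcription factor, a pair of chromatin factors and a checkpoint adaptor. Uhrf1, which brings the maintenance DNA methyltransferase to newly copied DNA, had 0.432, 1.23, 1.32 and 0.695 CPM in the controls and 6.46, 8.20, 8.20 and 8.84 CPM after injury. It rose by 3.10 on the log2 scale (standard error 0.36, edgeR adjusted p = 0.00124), a fold change of 8.57 that differs from that of Cdc6 by less than either standard error. Chaf1b, a subunit of the histone chaperone that follows the fork, had 0.504, 0.410, 0.554 and 0.486 CPM and 2.57, 3.12, 1.68 and 1.72 CPM and also rose (log2 fold change 2.19, standard error 0.31, edgeR adjusted p = 0.00279).

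Clspn, the adaptor of the replication checkpoint, had 1.94, 1.64, 1.39 and 0.973 CPM in the controls and 2.45, 3.77, 1.63 and 1.96 CPM after injury, with injured artery 3 within the control range and injured artery 4 barely above it (log2 fold change 0.72, standard error 0.35, edgeR adjusted p = 0.2). E2f1, an activator of the E2F family, had 12.2, 12.8, 9.98 and 5.28 CPM and 8.91, 15.3, 7.97 and 13.3 CPM. Injured arteries 1 and 3 lay within the control range, and the log2 fold change of 0.17 (standard error 0.33, edgeR adjusted p = 0.757) turned to -0.05 without control artery 4.

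Across the 33 genes, the injured arteries did not share one order. Injured artery 2 was the highest injured artery for 12 genes, injured artery 4 for 10, injured artery 1 for 8 and injured artery 3 for 3, and injured artery 3 was the lowest for 15. Among the controls, artery 3 was the highest for 14 genes and artery 4 the lowest for 15, but artery 4 was also the highest for 8, among them Fen1, Gmnn, Rfc4, Rfc5 and Prim1. Called genes had control means of 0.195 to 9.04 CPM and the tested genes that were not called had 0.422 to 40.2 CPM.

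Other genes of replication were read from lists that do not overlap with the 34. Of 37 further origin and replisome genes, 36 had a row and 35 were tested. Of these, 2 were called higher and 0 lower by edgeR, 9 higher and 3 lower had an unadjusted p under 0.05, and DESeq2 called 4 higher and 0 lower. That is 5.71%, beside 33.3% of the 33 genes above and 8.31% of all genes called higher (10.9% in either direction). On the adjusted p of edgeR alone, 6 were higher and 3 lower (10.8% and 6.39% of all genes). In 10 of the 36 genes with a row, among them the untested Dbf4, every injured artery lay above every control (14.2% of all genes). In 3, every injured artery lay below every control (9.51% of all genes). The median log2 fold change of the 35 tested genes was 0.08. The called genes were Ticrr and Timeless, the latter named after its values were seen. Ticrr, which recruits Cdc45 to the ring, had 0.0720, 0.164, 0.346 and 0 CPM in the controls (1, 2, 5 and 0 counts) and 1.85, 3.19, 1.68 and 2.78 CPM after injury, with a log2 fold change of 3.95 (standard error 0.67, edgeR adjusted p = 0.00607). Timeless, of the fork protection complex, had 6.12, 5.74, 4.37 and 2.85 CPM and 13.0, 18.1, 9.32 and 11.5 CPM (log2 fold change 1.44, standard error 0.31, edgeR adjusted p = 0.0152). Every injured artery was above every control for both.

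Asf1b, a histone chaperone, had a log2 fold change of 2.33 (standard error 0.78) but was not called (edgeR adjusted p = 0.079), with 3, 8, 14 and 0 counts in the controls. At the other end were the accessory polymerase subunits Pold2 and Pole3. Pold2 had 25.8, 26.1, 29.0 and 21.3 CPM in the controls and 15.7, 14.1, 16.96 and 17.9 CPM after injury, and Pole3 had 20.6, 21.4, 20.9 and 23.4 CPM and 14.8, 11.3, 16.8 and 12.0 CPM, both lower in every injured artery (9.51% of all genes tested). Their log2 fold changes were -0.66 and -0.65 (standard errors 0.14 and 0.16, edgeR adjusted p = 0.0162 and 0.0263), short of a fold change of 2. The catalytic subunit of the same polymerase as Pold2, Pold1, thus had a positive value and Pold2 a negative one.

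**Figure D4:**
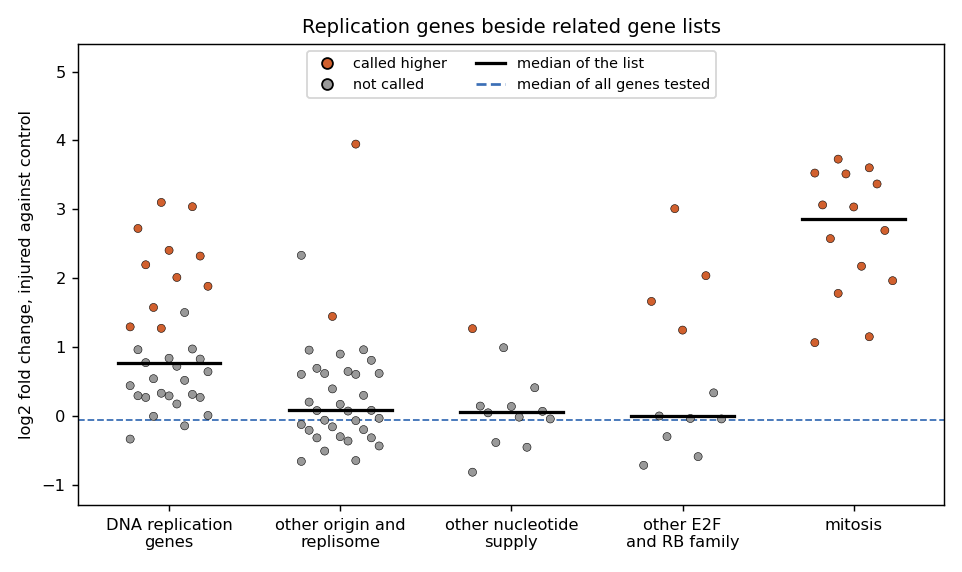
Log2 fold change (injured against control) of every tested gene in 5 lists, orange where called higher and grey where not, with a bar at the median of the list and a dashed line at the median of all genes tested. The medians are 0.77 for the DNA replication genes, 0.08, 0.06 and -0.00123 for the other replisome, nucleotide and E2F and RB lists, and 2.86 for mitosis.

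Of 12 further nucleotide supply genes, edgeR called 1 higher, 8.33% against 8.31% of all genes, and 0 lower (2 higher and 2 lower at an unadjusted p under 0.05), and DESeq2 called 1 higher and 0 lower. The called gene was Samhd1, a phosphohydrolase that degrades dNTPs, with 5.19, 5.17, 3.05 and 5.42 CPM in the controls and 11.2, 17.3, 8.87 and 7.94 CPM after injury (log2 fold change 1.27, standard error 0.31, edgeR adjusted p = 0.0261). With 1 artery removed at a time, the call held in 3 of 8 fits and was lost in those without control artery 1, control artery 2, control artery 3, injured artery 1 or injured artery 2. Shmt1, which feeds one-carbon units to thymidylate synthesis, followed at 0.99 (standard error 0.25, edgeR adjusted p = 0.0289). Ctps1, which makes CTP, and Tk2, the mitochondrial thymidine kinase, were the lowest at -0.82 and -0.46 (standard errors 0.21 and 0.16, edgeR adjusted p = 0.0319 and 0.0989) and were not called.

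Of 12 further E2F and RB family genes, 11 were tested and 4 were called higher, 36.4% against 8.31% of all genes. These were E2f7 and E2f8, the atypical repressors, E2f2, an activator, and Rbl1, the pocket protein p107, the latter pair named after their values were seen. E2f7 had 0.144, 0.246, 0.416 and 0.278 CPM in the controls and 1.26, 3.34, 1.52 and 2.95 CPM after injury, and E2f8 had 0.360, 0.574, 0.832 and 0.417 CPM and 1.73, 3.48, 1.74 and 2.13 CPM. Their log2 fold changes were 3.01 (standard error 0.48, edgeR adjusted p = 0.00462) and 2.04 (standard error 0.38, edgeR adjusted p = 0.00967), beside 1.25 for E2f2 and 1.66 for Rbl1. The call of E2f2 was lost without control artery 2, injured artery 2 or injured artery 4. None was called lower by edgeR or DESeq2, while 3 had an unadjusted p under 0.05 in that direction. Rb1, the retinoblastoma gene, had 64.5, 65.4, 63.1 and 51.2 CPM and 46.6, 41.4, 35.0 and 39.1 CPM, and Tfdp2, a dimer partner of E2F, had 45.8, 38.4, 45.3 and 33.98 CPM and 28.4, 22.2, 24.3 and 24.5 CPM. Both were lower in every injured artery, with log2 fold changes of -0.59 and -0.72 (standard errors 0.13 and 0.14, edgeR adjusted p = 0.0163 and 0.0107).

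Genes of mitosis stand beside the replication genes in the cell cycle. Of 15 mitosis genes, 14 were tested and all 14 were called higher by edgeR, against 8.31% of all genes. Between 10 and 13 were called when each artery was left out in turn, with 13 called without control artery 4. Bub1 was called in only 1 of these 8 fits, that without injured artery 3, and Aurka in only 2, those without control artery 4 or injured artery 4. The median log2 fold change of the 14 was 2.86, against 0.77 for the replication genes, and the difference between the lists was not tested. Mki67, the proliferation marker Ki-67, had 2.30, 4.18, 5.06 and 2.02 CPM in the controls and 38.2, 49.9, 31.4 and 45.5 CPM after injury, and Cdk1, the mitotic kinase, had 0.648, 0.410, 0.762 and 0.278 CPM and 5.44, 10.2, 6.18 and 6.46 CPM. Their log2 fold changes were 3.60 and 3.73 (standard errors 0.34 and 0.38, edgeR adjusted p = 0.000561 and 0.000713), and the smallest of the list were 1.06 for Aurka and 1.15 for Bub1. Of the promoter elements, the CHR element of mitotic genes, TTTGAA on either strand, lay in 9 of 13 windows of mitosis genes (69.2%) and in 1 of 29 windows of the replication genes (3.45%), against 11.4% of genes tested. The E2F element lay in 1 of those 13 (7.69%), and CCAAT in 11 of them (84.6%) and in 20 of the 29 (69.0%), against 36.8% of genes tested.

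Markers of other cells differed between the groups too. The summed CPM of 7 macrophage markers was 121 to 162 in the controls and 535 to 751 after injury, and all 7 were called higher. Injured artery 2 had the highest macrophage sum and injured artery 3 the lowest, while the sum over the replication genes was highest in injured artery 4 (395 CPM, against 382 CPM in artery 2) and lowest in injured artery 3 (346 CPM). That order depends on the measure. By the mean over the replication genes of log2 CPM plus 1, injured artery 2 was highest (3.13, against 3.10 in artery 4). Injured artery 3 was again lowest by this mean (2.96). By the median over the tested replication genes, however, injured artery 1 was lowest (3.11) and artery 4 highest (3.49), with 3.34 in artery 3. Of 6 T cell markers, which summed to 18.5 to 37.5 CPM in the controls and 125 to 158 CPM after injury, most of the sum was Cd4 (18.0 to 31.4 CPM and 117 to 145 CPM), which macrophages of the rat also express. Cd4 and Cd2 were called higher and Cd3d, Cd3e, Cd3g and Cd8a, each at most 5.56 CPM, were not. The 5 B cell markers summed to 0 to 0.346 CPM in the controls and 1.35 to 2.45 CPM after injury, and Cd79a was at 0 in all 8 arteries. At these low counts edgeR tested 0 of them, and DESeq2 called 2 higher (9.72% of all genes). Smooth muscle markers summed to 17283 to 50154 CPM in the controls and 10398 to 16382 CPM after injury, and 4 of 6 were called lower. The part of these cells in the rise of the replication genes was not tested.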

How the data were processed

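RNA of 4 injured and 4 control arteries was sequenced. The authors deposited raw counts of reads per gene for 37209 genes. The submitters' processing notes list HISAT2 2.0.4, and the counting tool, genome build, annotation and strand setting are not given in the sources used here, so overlapping genes and near-identical copies are uncertain. All 8 columns were matched to arteries by their labels.

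The 14359 genes that passed filterByExpr of edgeR 4.0.16 (R 4.3.3) were scaled by TMM and tested between groups by quasi-likelihood, with no covariate. Calls needed a false discovery rate under 0.05 and a fold change above 2, the thresholds of the study's methods, which used DESeq. Standard errors were derived from the F statistic. Alternatives were DESeq2 1.42.0, RLE factors, library totals, other filters, the replicate block, other call rules and each artery left out in turn. The edgeR and DESeq2 fits were tested on simulated data first, with 200 genes changed by a fold of 4. There edgeR called 133 of the 200 (66.5%) and 6 unchanged genes, and DESeq2 called 165 (82.5%) and 61 unchanged genes. A gene that was not called by edgeR may thus have changed, and DESeq2 made more false calls in this simulation. Its counts were drawn with edgeR's own estimates of spread, without pairs and without an artery like control artery 4. The numbers of false calls therefore need not hold for these arteries, and smaller folds were not simulated.

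The members and all lists were chosen with earlier results of these data known. Values per artery were given for the helicase genes, for the extremes of each role group, and for genes that were not called or whose call was lost, and the 2 highest and 2 lowest were named in each other list.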

Additional observations from a re-analysis of the deposited data

Results flagged for a closer look

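Dixon's ratio, the distance of an extreme artery from its neighbour over the range of the group, passed its 95% critical value in 7 of 104 groups of 4 arteries. By chance about 5.2 would. For 3 genes the extreme one was control artery 4, namely Fen1 (ratio 0.938, 11.4 CPM against 4.78 in the nearest control), Gmnn (0.928, 3.89 against 1.802 CPM) and Rb1 (0.837, 51.2 against 63.1 CPM). In control artery 3 the ratio was 0.838 for Cdc6 (0.485 against 0.139 CPM, or 7 counts against 2) and 0.893 for Samhd1 (3.05 against 5.17 CPM). Injured artery 1 gave 0.865 for Gins2 (5.26 against 2.78 CPM), and injured artery 3 gave 0.859 for E2f2 (8.48 against 9.98 CPM).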

How the results depend on the processing

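Of the alternatives for single genes, 743 values kept direction and side of the threshold, 20 passed it, 51 lost it and 16 turned in sign, all 16 in genes that were not called. Prim1 was -0.0170 with DESeq2, -0.00407 without a filter and -0.00936 with RLE factors. With library totals only, Orc6 was 0.0415 and Rfc4 0.15, and Rfc4 was 0.0526 with the replicate block. When each artery was left out in turn, log2 fold changes lay between -0.0460 and 0.31 for E2f1, -0.29 and 0.0889 for Orc6, -0.10 and 0.15 for Prim1, and -0.13 and 0.29 for Rfc4. The cause was not tested.

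Leaving out each artery moved the genes called from 1142 (without injured artery 4) to 2398 (without control artery 4), those higher from 945 to 1817, those lower from 197 to 581, the further origin and replisome genes from 2 to 6, the nucleotide supply genes from 0 to 2, the replication genes from 10 to 13, and their median from 0.72 to 0.85. On the adjusted p alone 2468 genes were called, 918 of them lower, with 9 origin and replisome and 3 nucleotide supply genes. In a test against a fold change of 2, 661 genes were called, 600 higher and 61 lower, with 7 replication, 1 origin and replisome, 1 E2F and RB family and 0 nucleotide supply genes, fewer by construction. DESeq2 called 4 origin and replisome genes. With library totals only, the median of all genes moved by 0.175, that of the replication genes was 0.95, 85.1% of calls were higher against 76.4%, and 4 origin and replisome and 2 nucleotide supply genes were called.

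With the replicate block, 9 replication genes were called (6.64% of all genes called higher), without Mcm10 and Gins2, 234 genes were called lower, and 0 nucleotide supply, 3 E2F and RB family (without E2f2) and 11 mitosis genes were called. Of the smooth muscle markers 1 was then called lower, not 4, and Vwf and Dcn lost their calls. Deviations of same-numbered arteries correlated at 0.301, 0.45, -0.52 and -0.416, and 3 of 8 arteries correlated best with their own number. This cannot decide whether the numbers mark the pairs. The negative values, of numbers 3 and 4, involve injured artery 3 and control artery 4, whose sympathetic neuron markers summed highest (874 and 5685 CPM). The labels do not tie the numbers to rats, so the main fit left the pairing of the arteries unused. Fewer than 12 counts in a control artery, as for Cdc6, Orc1 and Rrm2, limit what depth can show. Among other called genes, control counts were 5 to 8 for Chaf1b, 3 to 13 for Mcm10 and 6 to 19 for Uhrf1. Those of E2f7, E2f8 and Cdk1 were 2 to 6, 5 to 12 and 4 to 11.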

Other observations

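Markers of further cells gave these values. Endothelial markers went apart, with Kdr and Cdh5 called higher (log2 fold changes 2.03 and 1.06) and Vwf called lower (-1.65), and Pecam1 and Tek not called. Of 4 fibroblast markers, Dpt was called higher (2.03) and Dcn lower (-1.15). Skeletal muscle markers summed to 82.6 to 252 CPM in the controls and 203 to 777 CPM after injury, and 3 of 5 were called higher. Adipocyte markers summed to 27.0 to 311 CPM in the controls and 10.01 to 124 CPM after injury, with 0 of 4 called by edgeR, 1 lower at an unadjusted p under 0.05 and 1 called lower by DESeq2. These genes are named after their values were seen.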
